A study of Saccharomyces cerevisiae with 48 samples.

Results

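A pair of cultures of budding yeast (Saccharomyces cerevisiae) that overproduce DDK, and that differ in the replication origins of chromosome III, were compared through meiotic S phase. The comparison is defined by its labels and not by any measured value. Earlier results of these data were known when it and the regions below were chosen. The comparison sets the DDK overproduction ars∆ culture against the DDK overproduction ARS+ culture at 7 matched times of 1, 1.5, 2, 2.5, 3, 3.5 and 4 hr. It holds 14 of the 48 samples of the series. Both cultures went through synchronized meiosis in 2% potassium acetate at 30 °C, and both carry the overproduction of DDK. They differ only in the state of the origins, as far as the labels say. The labels name neither the deleted origins nor the way in which DDK was overproduced. The study is known to have deleted active origins on the left arm of chromosome III.

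An ARS (autonomously replicating sequence) is a site at which yeast DNA replication can start. DDK is the kinase made of Cdc7 and its regulatory subunit Dbf4, and it phosphorylates the Mcm2-7 helicase loaded at origins so that replication forks can leave them. In meiosis, DDK also phosphorylates Mer2, a step needed for the DNA double-strand breaks that start recombination, which is one reason to ask how replication and break formation are tied along a chromosome arm. Where the origins of a stretch are missing, that stretch has to be copied by forks that arrive from outside. The left arm of chromosome III carries HIS4 and LEU2, genes for histidine and leucine synthesis that are widely used as marker loci in meiotic studies. In the RefSeq annotation of the later R64 assembly, 65 protein-coding genes have locus tags of this arm and 103 have tags of the right arm.

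Total DNA was sequenced, and the deposited value at each position is a ratio whose denominator is not stated. It was expressed here as log2 of the ratio over the median ratio of that sample, so that 0 is the median position and a complete doubling would add 1. A position that is copied before most of the genome stands above 0 until the rest catches up. The 4568 listed positions lie 2.5 kb apart on 16 chromosomes in sacCer2 coordinates, and 118 of them are on chromosome III. The depth behind a value is unknown. Each strain is 1 culture, so no value below has a spread between replicates, and the 7 times of a culture are not replicates. In place of such a spread, each value on chromosome III is set beside the same measure on the other 15 chromosomes, where the 2 strains carry the same origins as far as the labels say.

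Over the first 100 kb of chromosome III, relative copy number was lower without the origins at each of the 7 times, and the gap widened between 1.5 and 2 hr. The region has 36 listed positions. In the ARS+ culture its mean level was 0.12 at 1 hr, 0.097 at 1.5 hr, 0.13 at 2 hr, 0.16 at 2.5 hr, 0.18 at 3 hr, 0.11 at 3.5 hr and 0.11 at 4 hr. In the ars∆ culture it was 0.086 at 1 hr, 0.054 at 1.5 hr, -0.0092 at 2 hr, 0.034 at 2.5 hr, 0.019 at 3 hr, -0.050 at 3.5 hr and -0.044 at 4 hr. The lowest level of the ARS+ culture, 0.097, lay just above the highest of the ars∆ culture, 0.086. How many regions on other chromosomes show such a separation was not counted, and the times of a culture are not replicates. With its origins the arm stood above the median of the genome throughout, highest at 3 hr. Without them it stood near or below the median from 2 hr onwards.

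**Figure D1:**
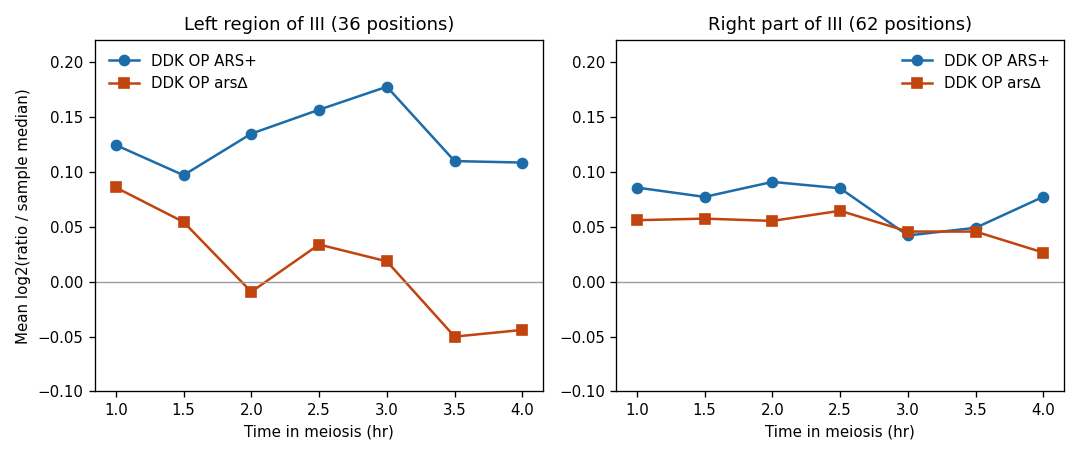
Mean log2 of the ratio over the sample median (vertical axis) against time in meiosis in hours (horizontal axis) for the DDK OP ARS+ culture (circles) and the DDK OP ars∆ culture (squares), 1 culture each. Left panel, the first 100 kb of chromosome III, where the cultures separate at 2 hr; right panel, the part beyond 150 kb, where both stay between 0.026 and 0.091.

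The difference in the left region, ars∆ minus ARS+ on the log2 scale, was -0.039 at 1 hr and -0.043 at 1.5 hr. It was -0.14 at 2 hr and -0.12 at 2.5 hr. At 3, 3.5 and 4 hr it was -0.16, -0.16 and -0.15. As a change in the ratio itself, this was -2.64% at 1 hr, -9.50% at 2 hr and -10.5% at 3.5 hr. The gap thus reached most of its size by 2 hr and differed little between 3 and 4 hr.

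Of 108 other stretches of 100 kb on the other chromosomes, few or none were as low, depending on the time. At 1 hr 5 of the 108 were as low as the left region, and at 1.5 hr 12 were. At 2 hr none was, with the lowest at -0.089. At 2.5 hr 1 was lower, at -0.14. At 3, 3.5 and 4 hr none was as low, and the lowest stood at -0.056, -0.069 and -0.11. The SD over these regions lay between 0.025 at 1 hr and 0.034 at 4 hr. Ends of chromosomes gave the same picture: of 29 end regions of 100 kb on the other chromosomes, 2 were as low at 1 hr, 1 at 1.5 hr and none at any time from 2 to 4 hr.

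**Figure D2:**
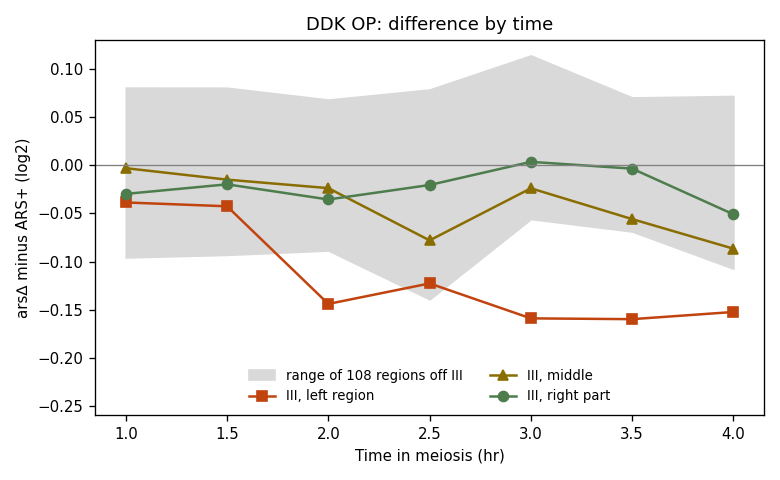
Difference between the DDK OP cultures, ars∆ minus ARS+ (vertical axis, log2), against time in meiosis in hours, for 3 parts of chromosome III (left region squares, middle triangles, right part circles). The grey band spans the lowest to the highest of 108 regions of 100 kb on the other chromosomes; the left region lies below it at 2, 3, 3.5 and 4 hr.

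The cultures already differed by a little at 1 hr, and each sample was therefore also expressed relative to the 1 hr sample of its own culture, with the 5 times from 2 to 4 hr averaged. By this change from 1 hr, the left region of the ARS+ culture stood at 0.013 and that of the ars∆ culture at -0.096, a difference of -0.11. Of the 108 regions elsewhere 0 reached that value, and they ranged from -0.060 to 0.076 with an SD of 0.023. The ARS+ arm therefore kept its place relative to the genome after 1 hr, while the ars∆ arm lost place.

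Chromosome III as a whole was already above the median at 1 hr in both cultures, at 0.093 in ARS+ and 0.065 in ars∆. Chromosomes I and VI were higher still in ARS+, at 0.16 and 0.12, and in ars∆ at 0.17 and 0.090. By the change from 1 hr, chromosome III differed by -0.037 over its whole length, and the other 15 chromosomes ranged from -0.021 on I to 0.034 on IX. Of the 108 regions of 100 kb, 7 were as low as the whole of III by this measure. At single times, VI was lower than III at 1 hr (-0.030 against -0.028) and 2.5 hr (-0.072 against -0.061). At the other times no chromosome was as low as III.

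The only spread between cultures that the series offers comes from the other backgrounds, wild type and tof1∆, each with 1 ARS+ and 1 ars∆ culture. Limma was fitted to all 6 cultures with a term for each background, 1 term for ars deletion in wild type and tof1∆ and another for ars deletion in DDK OP. This leaves 1 residual degree of freedom, from how far the wild-type and tof1∆ effects differ, and assumes that the DDK OP cultures vary like those. Over 109 regions of 100 kb, the left region was lower in ars∆ by -0.11 (SE 0.017, limma, Benjamini-Hochberg adjusted p = 2.7e-07), which was the lowest p of all. The fit gave every region the same SE, since its prior variance carried infinite weight. That SE is smaller than the SD of 0.023 of the same DDK OP difference over the 108 regions off chromosome III. With 3 regions called lower (2.75%) and 3 called higher (2.75%), 5 of the 6 calls were off chromosome III. Those 5 had differences between -0.060 and 0.076, and the p-value of the left region is to be read beside them. With the mean of 1 to 4 hr in place of the change from 1 hr, the left region was the only region called (-0.12, SE 0.019, adjusted p = 6.3e-07). At single times minus 1 hr, limma called the left region at 3.5 hr (-0.12, SE 0.022, adjusted p = 2.8e-05) and 4 hr (-0.11, SE 0.025, adjusted p = 0.0012), and not at 1.5, 2, 2.5 or 3 hr. Off chromosome III it called 8 regions at 3.5 hr and 2 at 4 hr. The left-region values at the times without a call were -0.0040, -0.11, -0.084 and -0.12. At 2 hr the SE was 0.021, close to that at 3.5 hr. The prior variance, however, weighed 1.35 degrees of freedom at 2 hr and infinitely at 3.5 hr. Calls at 2 hr and 3.5 hr therefore do not compare like with like. At 2.5 hr, however, the prior variance weighed infinitely as it did at 3.5 and 4 hr. The left region, at -0.084, was not called there even so.

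Within the left arm the difference was neither even nor spread over its whole length. In windows of 10 kb, and by the change from 1 hr, 7 of the 10 windows of the left region were lower by over 0.10, a size chosen as the threshold for counting. Off chromosome III, 1.57% of 1143 windows were lower by that much and 2.89% higher, with an SD of 0.052. The 7 windows are adjacent and run from 30001 to 100000. The longest such run off chromosome III had 2 windows. On the rest of chromosome III no window passed the threshold in either direction. Lower in ars∆ at all 5 times from 2 to 4 hr were 7 of the 10 windows of the left region, against 15.1% off chromosome III.

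The window of ARS305 (30001 to 40000), an origin that fires early in mitotic cells, had the lowest change from 1 hr on chromosome III. By the mean of 1 to 4 hr it had -0.16 and was not the lowest. By that measure the windows starting at 40001 and 50001 had -0.17 and -0.18. Those starting at 80001 and 90001 had -0.20 and -0.19. In ARS+ the level of the ARS305 window was 0.18 at 1 hr, 0.15 at 1.5 hr, 0.23 at 2 hr, 0.24 at 2.5 hr, 0.22 at 3 hr, 0.19 at 3.5 hr and 0.17 at 4 hr. In ars∆ it was 0.15 at 1 hr, 0.069 at 1.5 hr, 0.024 at 2 hr, 0.064 at 2.5 hr, 0.014 at 3 hr, -0.067 at 3.5 hr and -0.029 at 4 hr. The ARS+ window is high at all times, and the ars∆ window starts almost as high and ends near the median. Its difference in the change from 1 hr was -0.18, and 3 of the 1143 windows off chromosome III were as low or lower. By limma over all 1174 windows it did not pass (SE 0.045, adjusted p = 0.065).

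Across the next windows of the arm the differences in the change from 1 hr were -0.15 at 40001 to 50000, -0.13 at 50001 to 60000 and -0.12 at 60001 to 70000. The window of ARS306 (70001 to 80000), the second early origin of this arm, had 0.15 at 1 hr, 0.20 at 3 hr and 0.11 at 4 hr in ARS+. In ars∆ it had 0.091 at 1 hr, 0.0033 at 3 hr and -0.056 at 4 hr. Its difference in the change from 1 hr was -0.10. Its levels in ARS+ were thus lower than those of the ARS305 window, and so was its drop. At 80001 to 90000 the difference was -0.17, on 2 listed positions beside a gap, and its values ran from -0.51 at 3.5 hr to 0.11 at 2.5 hr. At 90001 to 100000 it was -0.14.

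Towards the centromere the difference shrank. The window of ARS307 (100001 to 110000) stood at -0.088, with 33 windows off chromosome III as low, and that of CEN3 (110001 to 120000) at -0.058. At 120001 to 130000 the value was 0.015, the first above 0 on that side. Towards the telomere it shrank within fewer windows. It was -0.044 at 20001 to 30000 and 0.019 at 10001 to 20000, and the first window had -0.097 on 2 listed positions. All windows from 20001 to 120000 were below 0, a run of 10, and off chromosome III 2 runs were as long or longer, the longest with 16 windows on IV. The run by sign alone is thus no longer than elsewhere, whereas its depth is greater.

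**Figure D3:**
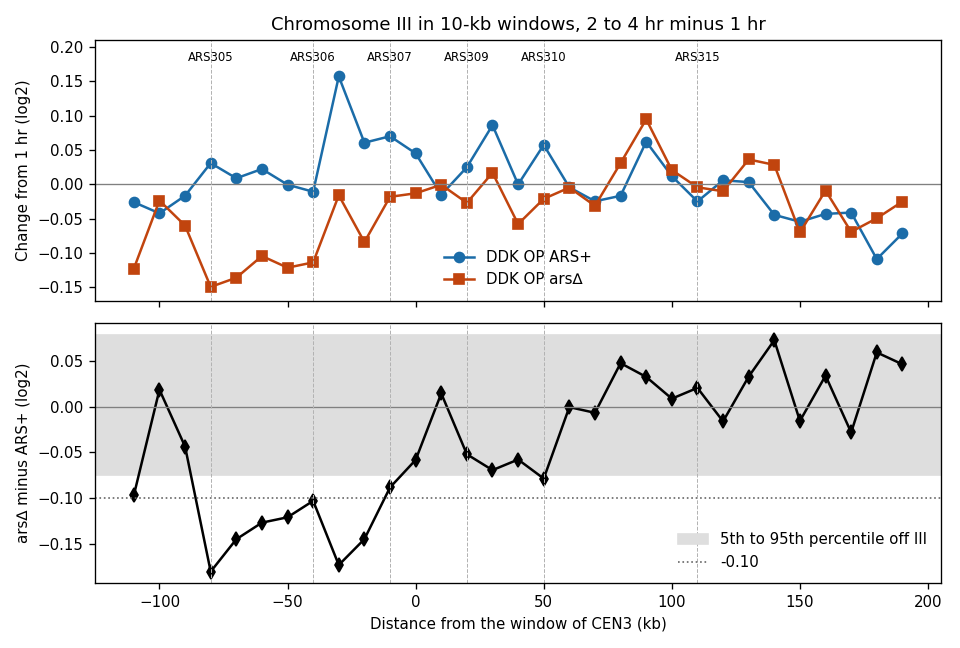
Chromosome III in 10-kb windows, plotted by distance in kb from the window of CEN3. The upper panel gives the change from 1 hr (mean of 2 to 4 hr minus 1 hr, log2) in the DDK OP ARS+ (circles) and ars∆ (squares) cultures, and the lower panel their difference with a band from the 5th to the 95th percentile of windows on other chromosomes (-0.075 to 0.079). Dashed lines mark windows assigned to origins; 7 adjacent windows left of the centromere lie below the dotted line at -0.10.

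Single positions show the same limits. At 3 hr 34 of the 36 positions of the left region were lower in ars∆ (94.4%), against 48.7% of positions off chromosome III. At 1 hr 22 of the 36 were lower (61.1%), against 49.5%. At all 5 times from 2 to 4 hr, 24 of the 36 were lower (66.7%), against 16.2% off chromosome III and 17.7% of the 62 positions beyond 150 kb. The lowest single position at 3 hr was 52500, at -0.36, and the 2 that were not lower were 15000 and 17500, at 0.015 and 0.0066. Position 37500, at the ARS305 window, had -0.11 at 1 hr, -0.29 at 2 hr, -0.32 at 3 hr and -0.28 at 4 hr. Neighbouring positions share signal, so counts of positions overstate the number of separate measurements.

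By time, the windows of the left region that were lower by over 0.10 numbered 0 of 10 at 1 hr and 2 at 1.5 hr, against 3.59% and 5.69% of windows off chromosome III. At 2 hr they numbered 7 against 6.3%, and at 2.5 hr 6 against 7.52%. At 3 hr they numbered 9 against 5.42%, the most of any time. At 3.5 and 4 hr they numbered 7 and 7, against 3.59% and 7.52%. The share at 1 hr and at 1.5 hr rests on so few windows that it cannot be set apart from the background.

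**Figure D4:**
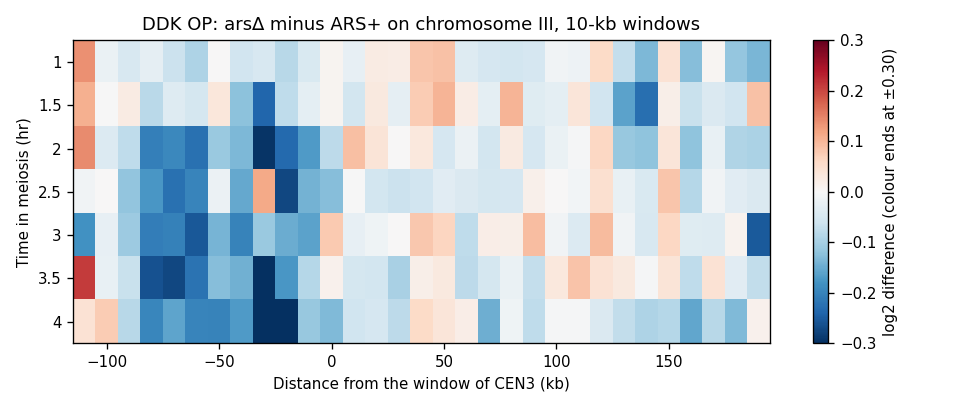
Difference between the DDK OP cultures, ars∆ minus ARS+, in 10-kb windows of chromosome III (horizontal axis, distance in kb from the window of CEN3) at each time in meiosis (vertical axis, hours). Blue is lower in ars∆ and red higher, on a log2 scale whose colours end at ±0.30; the blue block left of the centromere is present from 2 hr on.

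Within ars∆ the shape of the arm also changed between 1 and 3 hr, whereas in ARS+ the arm stood above its centromere at both times. In ARS+ at 3 hr the 3 windows from 30001 to 60000 averaged 0.20 and the windows of ARS307 and CEN3 averaged 0.089, so that the arm stood above its centromere. In ars∆ at 3 hr the same parts averaged -0.024 and 0.048, and at 3.5 hr -0.080 and 0.025. At 1 hr both cultures had the higher value on the arm, 0.16 against 0.054 in ARS+ and 0.10 against 0.036 in ars∆. At 4 hr the parts were level in ARS+, at 0.12 and 0.13, and in ars∆ they stood at -0.060 and 0.0033. In ars∆ the arm was thus above its centromere at 1 hr and below it at 3, 3.5 and 4 hr. In ARS+ the arm was clearly above at 3 and 3.5 hr, as it already was at 1 hr. These are means of few windows with no spread between replicates.

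The part of chromosome III beyond 150 kb, with 62 positions, differed less between the cultures than the left region. In ARS+ its level was 0.086 at 1 hr, 0.042 at 3 hr and 0.077 at 4 hr. In ars∆ it was 0.056 at 1 hr, 0.046 at 3 hr and 0.026 at 4 hr. Its difference at 4 hr, -0.051, was the widest, and 9 of 108 other regions were as low there. By the change from 1 hr the difference was 0.0084, and 73 of 108 other regions were as low. Without the subtraction of 1 hr its mean over 1 to 4 hr was -0.022, so its sign depends on that choice. The window of ARS310 (160001 to 170000) had -0.079 and that of ARS315 (220001 to 230000) 0.021 by the change from 1 hr. The 3 highest windows of the chromosome were at 250001 to 260000 with 0.073, 290001 to 300000 with 0.059 and 190001 to 200000 with 0.048, none of them past the 95th percentile of windows off chromosome III.

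Between 100001 and 150000 lies a middle part with 20 positions. Its difference was -0.0030 at 1 hr, -0.015 at 1.5 hr, -0.024 at 2 hr, -0.078 at 2.5 hr, -0.024 at 3 hr, -0.056 at 3.5 hr and -0.087 at 4 hr. It was nearer 0 than the left region at all 7 times, and nearer 0 than the right part at 1, 1.5 and 2 hr. By the change from 1 hr it was -0.051, with 2 of 108 other regions as low. Those regions span 100 kb with at least 30 positions, so their means can be expected to spread less than a mean over 20. The window of ARS309 (130001 to 140000) had -0.052 by the same measure. The CEN3 window alone varied from -0.13 at 4 hr to 0.079 at 3 hr.

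The 2 cultures differed in a measure of progress through S phase, which bears on any comparison at matched clock times. The progress of a sample was measured off chromosome III as its slope on the programme of the ARS+ cultures of wild type and tof1∆, so that a flat profile has a slope of 0. In DDK OP ARS+ the slope was -0.027 at 1 hr, 0.082 at 1.5 hr, 0.52 at 2 hr, 0.93 at 2.5 hr, 0.94 at 3 hr, 0.60 at 3.5 hr and 0.41 at 4 hr. In DDK OP ars∆ it was -0.015 at 1 hr, 0.29 at 1.5 hr, 0.51 at 2 hr, 0.36 at 2.5 hr, 0.72 at 3 hr, 0.94 at 3.5 hr and 0.62 at 4 hr. The slope was thus higher in ars∆ at 1.5 hr, and it was highest at 3 hr in ARS+ and at 3.5 hr in ars∆. In both cultures it rose and later fell, so equal slopes need not mean equal progress. Each slope rests on 1 sample and has no spread. In ars∆ it fell from 0.51 at 2 hr to 0.36 at 2.5 hr before it rose to 0.72 at 3 hr. Whether the cultures passed through S phase out of step was not tested. At 2 hr the slopes were 0.52 in ARS+ and 0.51 in ars∆, and the left region differed by -0.14. With the slope times the programme removed from every sample, the left region differed by -0.11 in the change from 1 hr. How far any unequal progress contributes to the left-region difference was not tested either.

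Set beside the other backgrounds, DDK OP was the only one whose left region was lower in ars∆ at 1, 1.5 and 2 hr. At 1 hr the difference was -0.039 in DDK OP, 0.020 in wild type and 0.069 in tof1∆, and at 1.5 hr -0.043, 0.016 and 0.074. The right part showed the same signs at 2 hr, with -0.036, 0.058 and 0.055, so they were not particular to the arm. In the left region at 2 hr the difference between ars∆ and ARS+ was -0.14 in DDK OP, 0.029 in wild type and 0.037 in tof1∆. The slopes on the programme at 2 hr were 0.55 and 0.13 in the wild-type ARS+ and ars∆ cultures and 0.15 and 0.17 in those of tof1∆. In 3 of these 4 cultures they were thus below those of DDK OP. The ARS+ cultures of wild type and tof1∆ are themselves part of the programme, so their slopes are not fully comparable with the others. At 2.5 hr the differences were -0.12, -0.072 and -0.071 in DDK OP, wild type and tof1∆. At 3 hr they were -0.16, -0.18 and -0.18. Minus 1 hr, the effect at 2 hr in DDK OP differed from that of the other backgrounds by -0.094 (SE 0.026, limma over 109 regions, adjusted p = 0.57), which did not pass the test. The prior variance weighed 1.35 degrees of freedom in that fit and infinitely in the fit at 3.5 hr. The p-values at the 2 times are thus not comparable.

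From 3 hr on, the difference was smaller in size in DDK OP than in wild type. At 3.5 hr the difference was -0.16 in DDK OP, -0.26 in wild type and -0.12 in tof1∆, and at 4 hr -0.15, -0.20 and -0.091. By the change from 1 hr the left region differed by -0.11 in DDK OP, against -0.16 in wild type and -0.15 in tof1∆. The difference between DDK OP and the others was 0.046 (SE 0.021, limma over 109 regions, adjusted p = 0.19) and did not pass. Its direction depends on the 1 hr values: by the mean of 1 to 4 hr the left region differed by -0.12 in DDK OP, -0.092 in wild type and -0.040 in tof1∆, and DDK OP differed from the others by -0.051 (SE 0.023, limma, adjusted p = 0.25). At 3.5 hr minus 1 hr it was 0.11 (SE 0.027, adjusted p = 0.0038) and passed, together with 4 regions off chromosome III. At 20001 to 30000 DDK OP had -0.044, wild type -0.15 and tof1∆ -0.18, a difference of 0.12 (SE 0.055, limma over 1174 windows, adjusted p = 0.61). No window of chromosome III passed that test, which called 3 windows lower (0.256%) and 2 higher (0.17%). Over regions it called 4 lower (3.67%) and 5 higher (4.59%), all 9 off chromosome III.

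**Figure D5:**
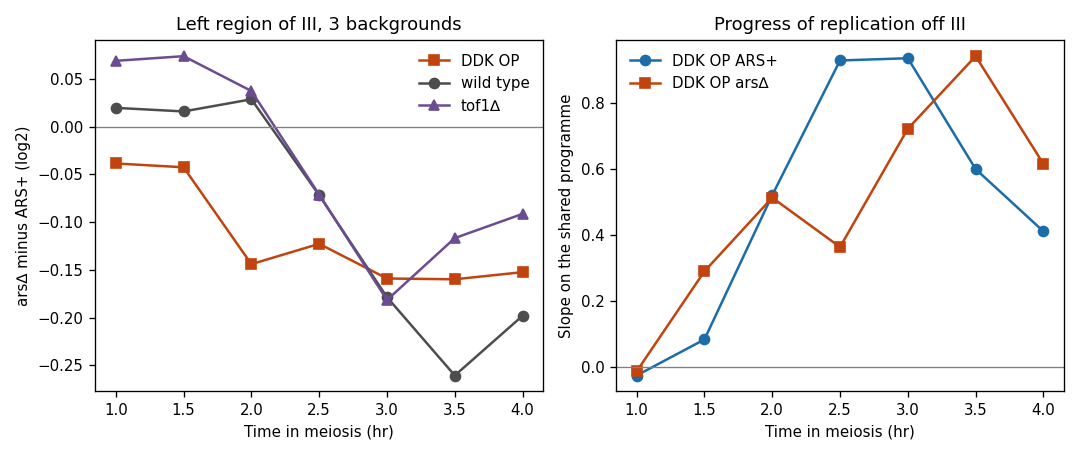
Left panel, the difference between ars∆ and ARS+ in the first 100 kb of chromosome III (vertical axis, log2) by time in meiosis in DDK OP (squares), wild type (circles) and tof1∆ (triangles), 1 pair of cultures each; DDK OP is below 0 and the other pairs above 0 at 1, 1.5 and 2 hr, and all are below 0 from 2.5 hr on. Right panel, the slope of each DDK OP sample on the replication programme of other cultures (ARS+ circles, ars∆ squares), off chromosome III.

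Off chromosome III the DDK OP cultures also differed at single places. Of the 7 windows that limma called for ars deletion within DDK OP, 2 lower (0.17%) and 5 higher (0.426%), none was on chromosome III. At an unadjusted p under 0.05 limma gave 75 windows, 8 of them in the left region. By the mean of 1 to 4 hr limma called 9 windows, 2 of them in the left region (lowest adjusted p = 0.022). By 2 hr minus 1 hr limma called 7, with 1 in the left region (adjusted p = 0.030). That window was at 80001 to 90000, on 2 listed positions beside a gap. The ARS305 window, at -0.18 by 2 hr minus 1 hr, was not called. By the change from 1 hr, the lowest was at 940001 to 950000 on XII, with a difference of -0.39 in the change from 1 hr (SE 0.044, adjusted p = 2.5e-06). There the ARS+ culture had -0.33 at 1 hr, 0.13 at 1.5 hr and -0.14 at 2 hr, and the ars∆ culture -0.011, -0.035 and -0.30. The value thus jumped between adjacent times in both cultures, and its size in the change from 1 hr rests in large part on the ARS+ sample at 1 hr.

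The next was at 430001 to 440000 on XVI, with -0.29 (SE 0.045, adjusted p = 0.00041). It came from positions 437500 and 440000. Position 440000 had -0.68 at 1 hr and -0.87 at 1.5 hr in ARS+, against 0.46 and 0.21 in ars∆, and at 4 hr -0.14 against 0.31. The window was higher in ars∆ at all 5 times from 2 to 4 hr, so its negative value reflects a larger gap at 1 hr. The other low windows were at 20001 to 30000 on I (-0.19, 2 listed positions), 180001 to 190000 on XIII (-0.17) and 590001 to 600000 on XV (-0.17).

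The 5 highest windows were at 810001 to 820000 on VII (0.27, 1 listed position), 1520001 to 1530000 on IV (0.25, 2 positions), 200001 to 210000 on IX (0.25), 10001 to 20000 on XVI (0.23, 1 position) and 20001 to 30000 on IX (0.19). These 5 are the ones that limma called higher. At 200001 to 210000 on IX the ARS+ culture had 0.22 at 1 hr, -0.037 at 1.5 hr, 0.038 at 2 hr and 0.19 at 3 hr, and the ars∆ culture -0.17, -0.071, -0.12 and -0.071. The 1 hr samples of both cultures lie apart from most later ones, and ARS+ was nearly as high again at 3 hr. None of the 10 windows has a neighbour among them. They are the extremes of each direction, whereas the run on the left arm of III was counted at -0.10. At that threshold the longest run off chromosome III had 2 windows, at 430001 to 450000 on IV.

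Centromeric windows, which replicate early, were close to each other in the 2 cultures. The 45 windows within 10 kb of a centromere off chromosome III averaged 0.059 in ARS+ and 0.056 in ars∆ by the change from 1 hr, and 20 of 45 were lower in ars∆. At 2.5 hr they differed by -0.058, with 35 of 45 lower, at the time when the slopes on the programme stood at 0.93 and 0.36. The outer 30 kb of the other chromosomes (81 windows) averaged -0.047 in ARS+ and -0.017 in ars∆, and 28 of 81 were lower. Over all windows off chromosome III, 564 of 1143 were lower. The median difference was 0.026 for the end windows, 0.0049 for centromeric windows and 0.00045 over all windows off chromosome III.

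Origins on other chromosomes were also set beside ARS305. By the change from 1 hr, ARS606 on VI, an early origin, had a difference of -0.012, and ARS607 on VI one of -0.048. ARS416 on IV had 0.062. The late origins ARS522 on V and ARS603 on VI had -0.0038 and 0.0051. All 5 lie within the 5th to 95th percentile of windows off chromosome III by that measure. By the mean of 1 to 4 hr, the difference was -0.11 at ARS416 and -0.093 at ARS603, both beyond the 5th percentile of -0.074, and -0.16 in the ARS305 window. The 88 windows of the small chromosomes I, VI and IX averaged 0.00064 in ARS+ and 0.0059 in ars∆, and 39 of them were lower in ars∆.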

How the data were processed

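Total DNA of meiotic cultures was sequenced. The authors deposited 1 table of ratios per strain, with a column for each of 7 times from 1 to 4 hr. The submitters' processing notes name BWA and the sacCer2 build. The version, the windows and the denominator of the ratio are not given in the sources used here. The 0 hr samples were not analysed here.

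Ratios were divided by the sample median and put on the log2 scale (Python 3.11.15). Means were taken over positions of 10-kb windows (1174, of which 1097 hold 4 positions) and 100-kb regions with at least 30 listed positions. Origins and centromeres were placed by rounded position from general knowledge. In R 4.3.3, limma 3.58.1 (lmFit, eBayes) was fitted to all 6 cultures, with Benjamini-Hochberg adjustment over all windows or regions and a threshold of 0.05, and was tested on simulated data. The 100-kb fit was added after the windows had been seen. Windows were named by rule: the origin windows of III, the 3 lowest and highest of III, the 5 lowest and highest elsewhere, and those called by limma. The comparison, regions and lists were chosen with earlier results of these data known. The progress measure subtracts 1 hr values in the programme, which favours low slopes at 1 hr. No replicates exist, so no SD between cultures of a strain is given.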

Additional observations from a re-analysis of the deposited data

Results flagged for a closer look

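A test of the difference between backgrounds picked out 6 results (limma, Benjamini-Hochberg adjusted p under 0.05), and no cause is weighed here. In the left region of III at 3.5 hr minus 1 hr, the drop with ars deletion was smaller in DDK OP than in the other backgrounds, -0.12 against -0.23, a difference of 0.11 on the log2 scale. This depends on the subtraction of 1 hr: without it, DDK OP stood at -0.16 at 3.5 hr, wild type at -0.26 and tof1∆ at -0.12, and by the mean of 1 to 4 hr the difference between backgrounds was -0.051. In the change from 1 hr, the window at 940001 to 950000 on XII differed from the other backgrounds by -0.48 and that at 430001 to 440000 on XVI by -0.27. The window at 530001 to 540000 on VII, with 2 listed positions, differed by -0.24. The windows at 200001 to 210000 on IX and 10001 to 20000 on XVI differed by 0.24 and 0.27, the latter on 1 listed position. Each group is 1 culture per strain and time, so no sample could be tested against others of its group.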

How the results depend on the processing

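The left-region difference of -0.11 in the change from 1 hr lay between -0.12 and -0.10 under 15 alternatives, and at each of the 7 times it was below 0 under all 49. These changed the times, the early baseline, the centring, the summary over positions, the bound (80 or 120 kb), the programme slope, and left out each later time or the window at 80001 to 90000. The right part changed sign to -0.022 without the 1 hr value subtracted, and so did the left-region difference between DDK OP and the other backgrounds (0.046 to -0.051). The counts past 0.10, 7 lower and 0 higher on III and 18 lower and 33 higher elsewhere, became 14, 3, 95 and 106 in 5-kb windows, which hold more noise by construction. With a threshold of 0.15 they were 2, 0, 5 and 8, and with windows of 4 positions only, 33 became 21. The 7 windows called by limma within DDK OP became 4 with windows of 4 positions only, 1 of them in the left region, and 9 by the mean of 1 to 4 hr, 2 of them there. Limma over 100-kb regions lost the left-region call at 1.5 hr (-0.0040), 2 hr (-0.11), 2.5 hr (-0.084) and 3 hr (-0.12), each minus 1 hr. The cause was not tested. Alternatives at single later times, the 100-kb fit and the omission of the window at 80001 to 90000 were chosen after seeing the data. No paired analysis was possible because each strain has 1 culture. Unchanged direction was judged against the SD over 108 other regions, since there is no spread between replicates. The depth is unknown, so its limit on the values cannot be given.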
